A study of Rattus norvegicus with 49 samples.

Results

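Livers of rats on the most severe of the restricted diets were compared with livers of rats on the mildest one after 14 days, without the ad libitum control. The 10 arrays used are the 5 of group 5 (60% less food than ad libitum, so 40% of the food) and the 5 of group 3 (15% less, so 85% of the food) at day 14, out of 49 arrays in the series. All were male Sprague Dawley rats, described as about 8 to 10 weeks old and 250 to 350 g when treatment began, and both groups ate powdered feed and were fasted overnight before necropsy. Each array holds the liver RNA of 1 rat, so the replicates are separate animals (rats 756 to 760 in group 3 and 766 to 770 in group 5). Both groups were restricted and fasted, so the comparison asks what a deeper cut in food adds to a mild one. Groups 3 and 5 at day 4 (5 rats each) repeat the contrast in other animals, and group 4 (30% less food) and group 2 (ad libitum, fasted overnight) at day 14 are given beside it as levels.

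A liver that receives little food between meals runs on low insulin. Insulin normally keeps the FoxO factors out of the nucleus, so that genes such as Igfbp1 and Irs2 stay low and the lipid regulator Srebf1 stays high. Fasting and restriction raise the coactivator Ppargc1a, which favours making glucose from lactate, glycerol and amino acids, and shortage of amino acids is read by the kinase Eif2ak4 (GCN2), which acts through Atf4 on a set of stress genes.

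Among 14217 genes tested, 1358 passed limma at an adjusted p under 0.1 (9.55% of those tested), and these are the genes said to have risen or fallen below. Of them 535 were higher in group 5 (3.76% of all genes) and 823 were lower (5.79%). Counts of list members given below are to be set against these shares. Of the 923 distinct genes measured in the 57 lists, 180 were called (19.5%), and the lists were chosen with earlier results of these data known. Differences were mostly small, with a median size of 0.369 on the log2 scale among the genes called, and 35 rises and 48 falls reached log2 1, which is a doubling or halving of intensity. The ranges of the 2 groups did not overlap for 1012 genes (7.12%), and 858 of the genes called were among these. The split between rises and falls depended on scaling: the rises were 39.4% of calls as deposited, 49.7% after each array was centred on its median and 48.5% after another quantile normalization. Rats 769 and 770 of group 5 had the lowest array medians over genes, 7.375 and 7.384 against 7.426 to 7.459 in the other 8 rats, and without both of them 1101 genes were called, 602 higher and 499 lower. The count fell to 751 without rat 756, 802 without rat 757, 901 without rat 759, 817 without rat 768 and 826 without rat 770, and 611 genes (242 higher, 369 lower) were called in each of the 10 fits that left out 1 rat. Those fits are called leave-one-out fits here, and genes whose values in each rat are given below passed all 10 unless a smaller number is given. Of the 155 called genes picked by the naming rule given at the end, 91 did so. The other 64 lost the call in 1 to 9 fits, with adjusted p between 0.1 and 0.212. Not all of the 155 are described below, and some genes described to complete a count lie outside the rule.

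**Figure D1:**
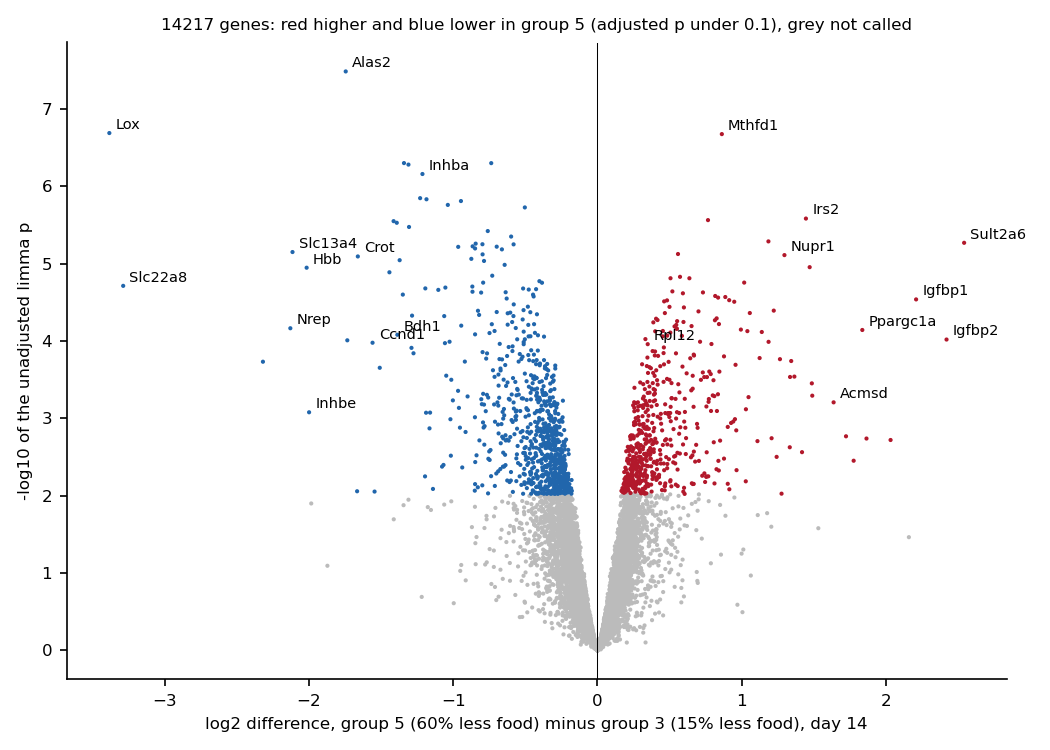
Each point is 1 of 14217 genes. The horizontal axis is the log2 difference of group 5 from group 3 at day 14 and the vertical axis the negative log10 of the unadjusted limma p; red points (535) are higher and blue points (823) lower in group 5 at an adjusted p under 0.1. Lox and Slc22a8 lie farthest to the left and Sult2a6, Igfbp2 and Igfbp1 farthest to the right.

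The tissue label matched its markers. The mean log2 intensity over 12 hepatocyte markers was 13.761 to 13.83 in the rats of group 3 and 13.767 to 13.864 in those of group 5, and 1 of them (Tat, an enzyme of tyrosine breakdown) was called. Albumin (Alb) had group means of 14.97 and 14.98. In whole liver, fewer cells of a type and less RNA per cell of that type cannot be told apart, which bears on every gene below that is not made by hepatocytes.

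The genes of the insulin and insulin-like growth factor axis gave some of the largest rises. Igfbp1, a binding protein that holds insulin-like growth factors in plasma and is repressed by insulin, read 10.88, 10.93, 11.51, 9.81 and 10.51 on the log2 scale in rats 756 to 760 of group 3 and 13.06, 12.49, 13.65, 12.03 and 13.46 in rats 766 to 770 of group 5 (all values below are in that order). Every rat of group 5 was above every rat of group 3. The difference was 2.21 (standard error 0.34, adjusted p = 0.00581), or 4.63-fold. Igfbp2, a second binding protein of the same family, read 9.11, 9.52, 8.22, 9.31 and 8.79 in group 3 and 11.22, 10.74, 13.11, 10.47 and 11.52 in group 5, again without overlap, with rat 768 far above the rest. It rose 5.36-fold (log2 2.42, standard error 0.42, adjusted p = 0.00974). Its order over the diets differed from that of Igfbp1: the mean in group 2, which was fed ad libitum, was 11.08, near the group 5 mean, while group 3 was lowest.

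Irs2, the adaptor that links the insulin receptor to its kinases, read 8.09, 8.30, 8.22, 8.57 and 8.55 in group 3 and 10.28, 9.41, 9.86, 9.34 and 10.07 in group 5. No values were shared between the groups, and the rise was log2 1.45 (standard error 0.17, adjusted p = 0.00263). Of 15 measured genes of insulin signalling and the FoxO response, 4 rose and 2 fell. The rises were Igfbp1, Irs2, Sesn1 (1.03, a stress sensor upstream of mTORC1, 4 of 10 leave-one-out fits) and the kinase-like Trib1 (0.42, named here after its value was seen because it completes the count). Srebf1 fell by 1.01 and Sesn3 by 0.34, and the second probe set of Sesn3 read 0.15. Leaving out rat 756, 757, 758, 759 or 768 took the 4 rises to 2. Of 14 genes of the growth hormone axis, Igfbp1 and Igfbp2 rose, and the receptor Ghr (−0.52, 2 of 10 fits) and Igfals (−0.46, 6 of 10 fits), which carries circulating growth factor in a ternary complex, fell. Neither fall was called without rat 756, 759, 768 or 770. Igf1 itself differed by −0.12 (adjusted p = 0.353).

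Secreted signals of the liver moved in both directions. Inhbe, which encodes a subunit of activin E, read 10.02, 9.68, 10.16, 9.99 and 9.96 in group 3 and 7.73, 8.37, 6.82, 9.86 and 7.04 in group 5. The groups overlapped through 1 rat only, rat 769 of group 5, which stayed at the group 3 level while the other 4 lay well below the lowest rat of group 3. The difference was −1.999 (standard error 0.45, adjusted p = 0.0281), and it was −2.47 without rat 769. Inhba, the subunit of activin A, fell by 1.21 (adjusted p = 0.00141) from 6.29, 5.95, 5.95, 6.36 and 6.0 to 5.29, 4.81, 5.00, 4.81 and 4.58, without overlap. The group 5 mean of 4.90 lay under the level of the dimmest 25% of probe sets (4.941), and the other probe set of Inhba differed by −0.05. Inhbc (−0.81) and Angptl8 (−0.78), an inhibitor of lipoprotein lipase, were the other falls among 20 hepatokines measured, and both are named because they complete that count. Of the 20, 4 fell and 2 rose, and 10 means were higher in group 5 and 10 lower (median difference −0.01). Hamp, the hormone hepcidin that blocks iron export from cells, rose by 0.95 (standard error 0.15, adjusted p = 0.0059), from 13.42, 13.78, 13.54, 12.80 and 13.23 to 14.25, 14.43, 14.32, 14.17 and 14.34, without overlap. Ferroportin (Slc40a1), the iron exporter hepcidin acts on, rose by 0.36 at the RNA level (adjusted p = 0.0151). Fgf21 differed by −0.61 and did not pass the test (adjusted p = 0.3).

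**Figure D2:**
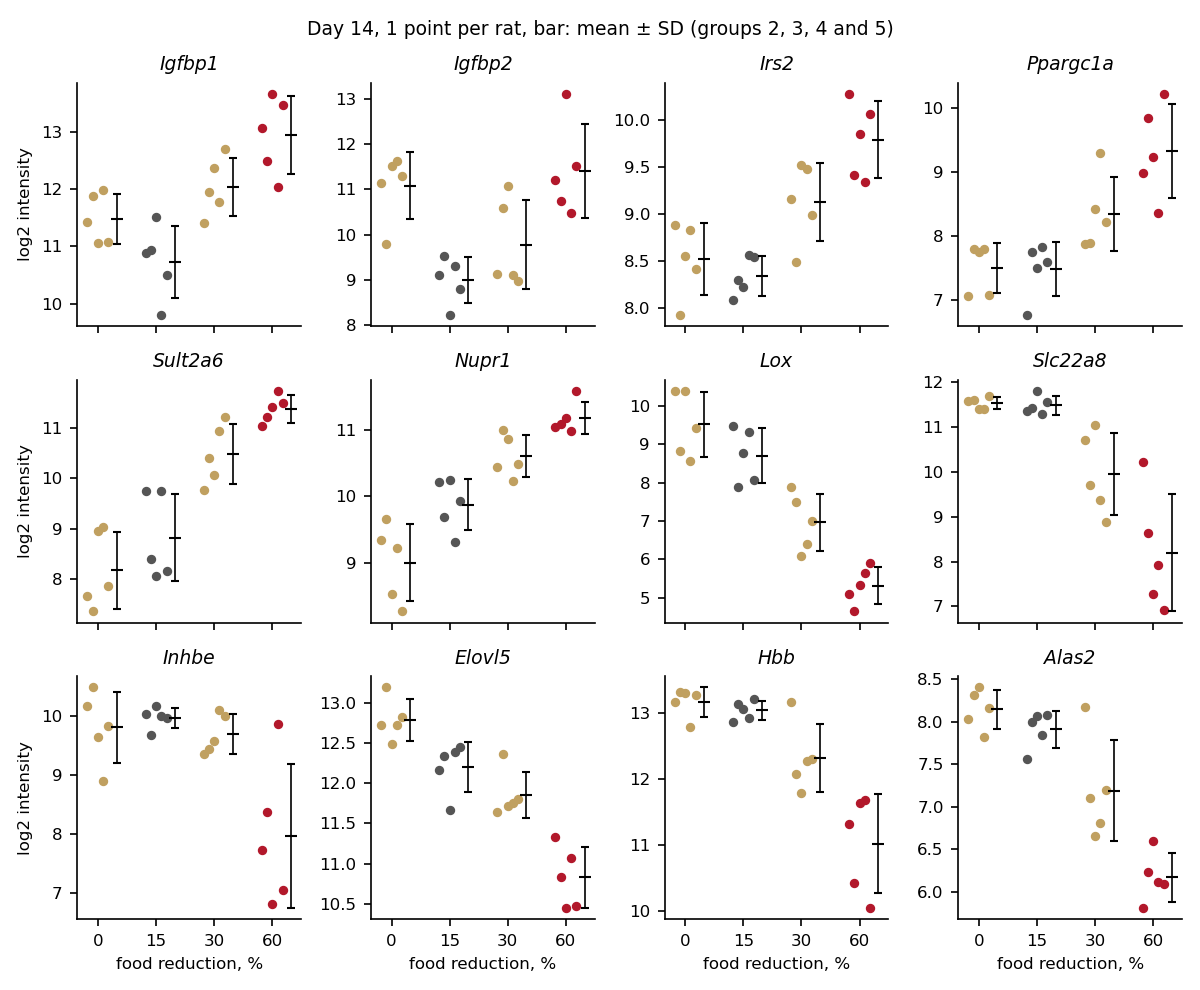
Log2 intensity of 12 genes in single rats at day 14, against the reduction in food (groups evenly spaced, not to scale); each point is 1 rat and each bar the mean ± SD of 5 rats. Grey points are group 3 (15% less food), red points group 5 (60% less) and tan points groups 2 (0%) and 4 (30%). Rat 769 of group 5 reads 9.86 for Inhbe, among the rats of group 3, and the mean of Igfbp2 in group 2 (11.08) is near that in group 5.

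Genes of glucose production changed unevenly. Ppargc1a, the coactivator of gluconeogenic and mitochondrial genes, read 6.77, 7.75, 7.49, 7.83 and 7.60 in group 3 and 8.99, 9.84, 9.23, 8.35 and 10.21 in group 5, without overlap. It rose 3.57-fold (log2 1.84, standard error 0.31, adjusted p = 0.00869). Of the 10 gluconeogenesis genes measured, 2 rose (Ppargc1a and the malate dehydrogenase Mdh1, 0.47, 9 of 10 fits) and 4 fell, and all 4 falls held in each leave-one-out fit. The falls were the lactate dehydrogenase subunit Ldha (−0.94, adjusted p = 0.0082), the glycerol 3-phosphate dehydrogenase Gpd1 (−0.82, adjusted p = 0.0072), mitochondrial Pck2 (−0.42, adjusted p = 0.0145) and pyruvate carboxylase (Pc, −0.37, adjusted p = 0.0136). Pck2 and Pc lie outside the naming rule and are given because they complete the count. Pck1, the cytosolic carboxykinase, differed by 0.07 with group means of 13.82 and 13.89 (adjusted p = 0.601). Gk, the glycerol kinase that brings glycerol into this pathway and 1 of the genes the study names for high edge betweenness in its network, read 11.33, 11.23, 10.75, 11.36 and 10.95 in group 3 and 10.40, 10.58, 9.99, 9.94 and 9.58 in group 5. It fell by 1.02 (standard error 0.18, adjusted p = 0.0101), without overlap.

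Of the network's hub genes that could be measured, Pgm1, the phosphoglucomutase between glycogen and glycolysis, fell by 0.30 (adjusted p = 0.0249). Hadha (−0.28, adjusted p = 0.101), Pklr (−0.43, adjusted p = 0.284), Tkt (0.09), Tpi1 (0.04) and Eno3 (−0.04) did not pass. Pkm, Tktl1 and Tktl2, also hubs, and Gapdh, named with Gk for edge betweenness, were not analysed here. Among 9 glycogen genes, Ppp1r3b, the subunit that brings protein phosphatase 1 to glycogen, fell by 0.78 (adjusted p = 0.0357), and Pgm1 and the primer protein Gyg1 (−0.21, 2 of 10 fits) also fell. The glucose transporter Slc2a2 (0.34) and Gpi (0.27) rose and the glucokinase regulator Gckr (−0.64) fell among 12 genes of glycolysis and glucose entry, but they held in 6, 5 and 5 of the 10 fits. The calls among these 12 genes went to 0 without rat 757, 759 or 768 for the rises and without those or rat 756 or 770 for the fall.

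In lipid metabolism, the regulator Srebf1 and the elongase Elovl5 fell while the lipin Lpin1 rose. Srebf1, the factor that drives fatty acid synthesis under insulin, read 11.57, 11.03, 10.77, 10.86 and 10.70 in group 3 and 10.31, 10.45, 9.98, 9.64 and 9.49 in group 5, without overlap. It was 2.02-fold lower (log2 −1.01, standard error 0.20, adjusted p = 0.0181). Among 13 genes of fatty acid synthesis the malic enzyme Me1 (−0.90, adjusted p = 0.0235) was the only other one called, and Fasn, the synthase, differed by −0.09 (adjusted p = 0.883). The mean log2 level of the 13 was 8.467 in group 2, 9.052 in group 3, 9.523 in group 4 and 8.844 in group 5. Elovl5, which lengthens polyunsaturated fatty acids, read 12.17, 12.34, 11.67, 12.39 and 12.45 in group 3 and 11.33, 10.84, 10.45, 11.07 and 10.47 in group 5. It fell by 1.37 (standard error 0.19, adjusted p = 0.00355), the 1 call among 11 desaturases and elongases. Lpin1, a phosphatidate phosphatase that also acts as a nuclear coactivator, read 9.80, 10.66, 11.24, 10.73 and 10.59 in group 3 and 11.97, 12.41, 11.73, 11.28 and 13.07 in group 5, without overlap. It rose 2.81-fold (log2 1.49, standard error 0.32, adjusted p = 0.0232), and of 15 glycerolipid genes Agpat1 (0.32), Lpin2 (0.67, 3 of 10 fits) and Cept1 (0.25, completing the count) rose as well while Gpat4 fell by 0.46.

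Oxidation genes leaned lower. Crot, which moves shortened fatty acids out of peroxisomes as carnitine esters, read 11.25, 11.56, 10.74, 11.38 and 10.67 in group 3 and 9.81, 9.67, 9.07, 9.87 and 8.89 in group 5. The fall was 3.16-fold (log2 −1.66, standard error 0.22, adjusted p = 0.00337), and 2 of its 3 probe sets were called lower while the other read 0.24. Bdh1, the mitochondrial enzyme that turns acetoacetate into 3-hydroxybutyrate, read 11.85, 11.50, 11.75, 11.90 and 11.92 in group 3 and 10.97, 10.77, 10.04, 10.71 and 9.49 in group 5, and fell by 1.39 (standard error 0.24, adjusted p = 0.00917) as the 1 call among 7 ketone body genes. Of 18 genes of mitochondrial fatty acid oxidation, 15 had lower means in group 5 (median difference −0.24, against 0.00 over all genes), but 3 passed: Acadl (−0.28) in every leave-one-out fit, Etfdh (−0.32) in 7 and Hadh (−0.46) in 3. That count was 9 without rat 769, 1 without rat 757, 768 or 770, and 2 without rat 758, 759 or 760. Cpt1a, the gate of the pathway, differed by −0.10 (adjusted p = 0.542). Fabp1, the main fatty acid binding protein of hepatocytes, fell by 0.34 (adjusted p = 0.0407) as the 1 call among 16 peroxisomal and PPAR alpha genes, a count of falls that was 4 without rat 769 and 3 without rats 769 and 770. At day 4 the same contrast called 4 of the 18 mitochondrial and 3 of the 16 peroxisomal and PPAR alpha genes lower. The median differences that day were −0.23 and −0.35, and 43 of all genes were called lower, so the lean was not particular to day 14. Among 18 genes of lipid droplets and lipases, 12 had lower means, with Pnpla2, the enzyme that begins triglyceride breakdown, higher by 0.85 (9 of 10 fits) and Mgll (−0.79) and hepatic lipase Lipc (−0.35) lower. These 2 falls were 5 without rat 769 and 4 without rats 769 and 770, and Pnpla2 was not called without rat 756.

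The sterol exporters fell together. Abcg5 and Abcg8 pair to form the transporter that secretes cholesterol into bile. Abcg8 read 7.37, 7.74, 7.11, 7.23 and 7.62 in group 3 and 6.17, 5.73, 6.43, 6.02 and 6.74 in group 5, and fell by 1.19 (standard error 0.18, adjusted p = 0.00543) without overlap. Abcg5 read 9.27, 9.81, 10.11, 9.18 and 9.93 in group 3 and 9.01, 8.53, 8.61, 9.21 and 8.997 in group 5, and fell by 0.79 (standard error 0.19, adjusted p = 0.0363), with rat 769 of group 5 just above the lowest rat of group 3. The genes are divergent neighbours, and their promoter windows in RefSeq (build GRCr8, 250 bases before to 50 after the annotated start) share 295 of 300 bases on opposite strands. The Abcg5 window is shown because it stands for both genes. It lies at chr6:15717686-15717985 on the plus strand and holds none of the 7 motifs searched, so it is printed without capitals.
Abcg5: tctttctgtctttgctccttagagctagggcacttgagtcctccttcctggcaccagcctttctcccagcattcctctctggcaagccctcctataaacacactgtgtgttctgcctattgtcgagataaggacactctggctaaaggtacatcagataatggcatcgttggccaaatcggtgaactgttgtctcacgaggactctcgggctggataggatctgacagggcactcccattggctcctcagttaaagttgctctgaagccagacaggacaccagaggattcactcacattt
Nr1h3, the oxysterol receptor LXR alpha that is known to act on both genes, fell by 0.39 (adjusted p = 0.0407), and Scarb1, the receptor for high density lipoprotein, by 0.34 (adjusted p = 0.0279, completing the count). Insig1, which holds the sterol sensor in the endoplasmic reticulum, rose by 1.21 (adjusted p = 0.0426), and these 5 were the calls among 13 genes of sterol sensing, uptake and export. All 5 held in every leave-one-out fit. Of 17 cholesterol synthesis genes 12 had higher means in group 5 (median difference 0.27), and Hsd17b7, which also acts on steroids, was the 1 called (0.84, adjusted p = 0.0597, 4 of 10 fits). It was also the 1 called among 6 steroid dehydrogenases of the study: Hsd17b2 (−0.25), Hsd11b1 (0.18), Akr1c19 (0.17), Hsd17b8 (0.07) and Hsd17b1 (0.02) did not pass. Among 20 bile acid genes 2 rose in every leave-one-out fit, Slc27a5, the ligase that conjugates bile acids to coenzyme A (0.85, adjusted p = 0.0163), and Cyp27a1 (0.40, adjusted p = 0.0128, chosen after its value was seen). The 4 falls were Hsd3b7 (−0.67, 3 of 10 fits), Amacr (−0.47, 7 of 10 fits), the uptake carrier Slco1b2 (−0.46, adjusted p = 0.0224) and the export pump Abcc2 (−0.38, completing the count), and they became 1 without rat 756 and 2 without rat 759 or 770.

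Of 33 amino acid degradation genes measured, 4 rose and 1 fell, where 3.76% of all genes rose and 5.79% fell. Got1, the cytosolic aspartate aminotransferase, read 12.54, 13.48, 13.18, 13.22 and 13.24 in group 3 and 13.89, 14.15, 13.88, 13.52 and 14.22 in group 5, without overlap, and rose by 0.80 (standard error 0.17, adjusted p = 0.0231). Aass, which starts lysine breakdown, rose by 0.69 (adjusted p = 0.0364) from 11.75, 12.19, 11.999, 12.42 and 12.16 to 12.80, 13.02, 12.63, 12.31 and 13.24, with rat 769 below the highest rat of group 3. Tat rose by 0.66 (2 of 10 fits) and the alanine aminotransferase Gpt by 0.39 (adjusted p = 0.046, completing the count). The 4 rises became 2 without rat 756 and 8 without rat 769. In tryptophan breakdown Kynu fell and Acmsd, which was not on this list, rose, and the other steps are not described here. Kynu, which cleaves kynurenines, fell by 0.77 (adjusted p = 0.0279), from 10.93, 10.90, 10.48, 11.30 and 10.44 to 9.99, 10.39, 10.03, 9.61 and 10.17. Acmsd, which diverts the same route away from making NAD, read 8.34, 8.66, 8.64, 7.55 and 7.20 in group 3 and 9.26, 10.00, 10.01, 8.76 and 10.55 in group 5, and rose 3.11-fold (log2 1.64, standard error 0.36, adjusted p = 0.0249).

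In the urea cycle, the ornithine carrier Slc25a15 rose by 0.50 (adjusted p = 0.0181) and Asl by 0.48 (4 of 10 fits) among 10 genes. Of 19 genes of methionine, serine and one-carbon metabolism 3 rose and 2 fell. Cytosolic Mthfd1 rose by 0.86 (standard error 0.08, adjusted p = 0.001), from 11.61, 11.68, 11.39, 11.35 and 11.45 to 12.43, 12.30, 12.52, 12.25 and 12.30, Ahcy (0.24, 3 of 10 fits) and Mat1a (0.22, completing the count) of the methionine cycle rose too, and mitochondrial Shmt2 (−0.45, adjusted p = 0.0138) and Amt (−0.34, adjusted p = 0.029) fell. Mthfd1 was the 1 rise of these left without rat 756, 757, 759, 766, 768 or 770. Slc38a2, which carries small neutral amino acids into cells, read 10.51, 10.81, 11.54, 9.60 and 10.04 in group 3 and 12.62, 11.78, 12.25, 10.76 and 12.18 in group 5. It rose by 1.42 (adjusted p = 0.0526) in overlapping groups and lost the call without rat 756, 759, 760, 768 or 770, with adjusted p of 0.106 to 0.116. Slc7a2, a carrier of basic amino acids, rose by 0.49 (adjusted p = 0.029), and Slc7a5 by 0.41 (5 of 10 fits), among 15 transporters, a count that was 1 without rat 759, 760 or 768 and 5 without rat 769.

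Genes of the integrated stress response did not move as one. Of 19 measured, Nupr1, Chac1 and Cebpg rose and Atf5 fell. Nupr1, a small stress-induced chromatin protein, read 10.21, 9.70, 10.24, 9.31 and 9.93 in group 3 and 11.04, 11.09, 11.18, 10.97 and 11.59 in group 5, without overlap. The rise was 2.46-fold (log2 1.30, standard error 0.17, adjusted p = 0.00334). Atf5, a factor translated when initiation is limited, fell by 0.86 (standard error 0.11, adjusted p = 0.00319), from 11.66, 11.57, 11.61, 11.89 and 11.36 to 10.52, 10.69, 10.96, 10.97 and 10.61, without overlap. Chac1, which degrades glutathione, read 6.83, 6.88, 7.03, 6.87 and 7.48 in group 3 and 8.84, 7.52, 7.83, 7.21 and 7.77 in group 5. Its rise of 0.81 (adjusted p = 0.0846) held in 4 of 10 fits, and that of Cebpg (0.20) in 2. The 3 rises of the list were 1 without rat 756, 757, 768 or 770 and 5 without rat 769. Asns (−0.19, adjusted p = 0.4) and Trib3 (0.31, adjusted p = 0.4), which are usual readouts of this response, did not pass. Promoter windows were available for 134 of the called genes picked by the naming rule, and motifs were searched on both strands. The amino acid response type motif TGATGNAAN was present in 8 of the 134 (5.97%, against 3.97% of all 33469 windows). These were Aars1, Alas2, Chac1, Cyp4b1, Got1, Inhbe, Nupr1 and Tat. This motif was 1 of 7 searched. The E-box CACGTG was present in 19 of the 134 (14.2%, against 6.42%), the STAT5 type TTCNNNGAA in 9 (6.72%, against 8.87%), the D-box TTATGNAA in 4 (2.99%, against 3.66%) and a sterol response type TCACNCCAC in 1 (0.746%, against 1.12%), while PPAR and heat shock types had no match among the 134 (0.0538% and 0.798% of all windows). The 33469 windows were not limited to genes tested on the arrays, while the 134 belong to called genes picked by the naming rule. The shares therefore compare unlike sets of genes, and whether they differ was not tested. Of the 8 genes with the amino acid response type, 5 rose (Chac1, Cyp4b1, Got1, Nupr1 and Tat) and 3 fell (Aars1, Alas2 and Inhbe). The windows of 3 are shown because they are the genes with this motif that belong to the stress response or fell most among hepatokines; capitals mark the match, which here is in the reverse orientation. The Chac1 window is chr3:126795881-126796180 on the plus strand with its match starting at position −168 from the gene start, the Nupr1 window is chr1:190645852-190646151 on the minus strand with its match at −56, and the Inhbe window is chr7:65064470-65064769 on the minus strand with its match at −229.
Chac1: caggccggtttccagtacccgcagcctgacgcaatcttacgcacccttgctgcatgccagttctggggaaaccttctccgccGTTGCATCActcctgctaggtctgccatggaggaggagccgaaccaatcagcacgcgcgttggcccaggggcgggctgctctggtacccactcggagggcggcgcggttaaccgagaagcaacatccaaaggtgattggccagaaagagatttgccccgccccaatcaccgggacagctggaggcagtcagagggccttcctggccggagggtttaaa
Nupr1: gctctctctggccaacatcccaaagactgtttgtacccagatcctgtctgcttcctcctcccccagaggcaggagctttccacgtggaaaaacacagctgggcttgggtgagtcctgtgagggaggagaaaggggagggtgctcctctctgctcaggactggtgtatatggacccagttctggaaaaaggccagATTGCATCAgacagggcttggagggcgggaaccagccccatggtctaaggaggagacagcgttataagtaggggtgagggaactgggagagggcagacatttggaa
Inhbe: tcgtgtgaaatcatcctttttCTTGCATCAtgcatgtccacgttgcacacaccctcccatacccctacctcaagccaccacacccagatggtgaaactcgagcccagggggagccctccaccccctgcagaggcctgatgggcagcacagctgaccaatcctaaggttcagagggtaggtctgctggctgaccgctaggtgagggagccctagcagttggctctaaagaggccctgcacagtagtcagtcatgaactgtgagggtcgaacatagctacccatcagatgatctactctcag
A match to these letters is a description of the sequence and shows no binding.

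Large changes were also found in transporters, a sulfotransferase and genes known for sex-dependent liver expression. Slc22a8, an organic anion transporter, read 11.35, 11.42, 11.81, 11.29 and 11.55 in group 3 and 10.22, 8.63, 7.28, 7.91 and 6.93 in group 5. All 5 rats of group 5 were lower, but they spread widely, with rat 766 closest to group 3 and rat 770 farthest, while group 3 was tight. The mean was 9.77-fold lower (log2 −3.29, standard error 0.48, adjusted p = 0.00543). The sulfate carrier Slc13a4 read 9.92, 9.68, 9.49, 9.62 and 9.47 in group 3 and 7.67, 7.66, 7.31, 8.50 and 6.46 in group 5, and fell 4.33-fold (log2 −2.11, standard error 0.28, adjusted p = 0.00334). The hydroxysteroid sulfotransferase Sult2a6 had the largest rise of all genes called: it read 9.75, 8.40, 8.07, 9.75 and 8.17 in group 3 and 11.02, 11.20, 11.40, 11.73 and 11.49 in group 5. Rats 756 and 759 were the highest of group 3, and all 5 of its rats were below group 5 (log2 2.54, standard error 0.33, adjusted p = 0.00319, 5.83-fold).

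Cux2, a repressor known to be female-biased in rodent liver, read 5.09, 5.83, 5.21, 6.39 and 5.46 in group 3 and 5.86, 7.10, 8.85, 7.38 and 8.97 in group 5. Rats 768 and 770 were highest and rat 766 was within the range of group 3, and the rise of 2.03 (standard error 0.51, adjusted p = 0.0435) lost the call without rat 756 (adjusted p = 0.104). Trim24, a chromatin reader of the same list, had the same high and low rats in group 5: it read 7.38, 7.40, 7.04, 7.91 and 7.40 in group 3 and 7.58, 8.62, 10.34, 9.32 and 10.60 in group 5 and rose by 1.87 (standard error 0.47, adjusted p = 0.0426). Of 11 female-biased genes, Cyp2a1 (0.26, 5 of 10 fits) also rose and Hao2, a peroxisomal hydroxyacid oxidase, fell by 1.29 (adjusted p = 0.0113) from 13.46, 13.24, 13.32, 13.28 and 13.52 to 12.73, 12.43, 11.79, 12.25 and 11.17. The 3 female-biased rises became 5 without rat 766, and none was called without rats 769 and 770. All 12 measured male-biased genes had lower means in group 5 (median difference −0.32), and Obp3, an odorant-binding protein of the urinary protein family, was the 1 called (−1.19, standard error 0.27, adjusted p = 0.0284). The mean log2 level of these 12 was 12.408 to 12.803 in the rats of group 3 and 11.369 to 12.554 in those of group 5. Without rat 766 or 767, 3 were called. Cyp2c11, the classic male-specific enzyme of rat liver, differed by −0.24 (adjusted p = 0.452).

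Ribosomal protein genes rose by small amounts. All 32 cytosolic ones measured had higher means in group 5 (median difference 0.21), and 21 passed the test, against 3.76% of all genes called higher. The size was 0.06 to 0.35, so none reached 1.5-fold, and the mean log2 level over the 32 was 11.99 to 12.063 in the rats of group 3 and 12.18 to 12.339 in those of group 5, without overlap. Rpl12 read 12.57, 12.50, 12.54, 12.60 and 12.59 in group 3 and 12.92, 12.79, 13.03, 12.85 and 12.96 in group 5 (difference 0.35, adjusted p = 0.0104), and Rpl3 (0.34), Rpl21 (0.31) and Rpl35 (0.27) followed. The count was 24 after median centring and 23 after quantile normalization, 12 without rat 757 and 11 without rat 768, and the lognormal model called 6. Ribosomal protein genes have many near-identical copies in the genome, so these intensities may include them. Proteasome subunits lay the other way, with 30 of 32 means lower (median difference −0.11), but 4 passed (Psmd1, Psma4, Psmb3 and Psmd2, −0.26 to −0.22), and without rat 756, 757, 758, 759, 768 or 770 none did. Of 49 genes of oxidative phosphorylation, 42 had higher means (median difference 0.10), and Atp5f1c (0.20) and Ndufv2 (0.19) passed, in 2 and 1 of the 10 fits.

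**Figure D3:**
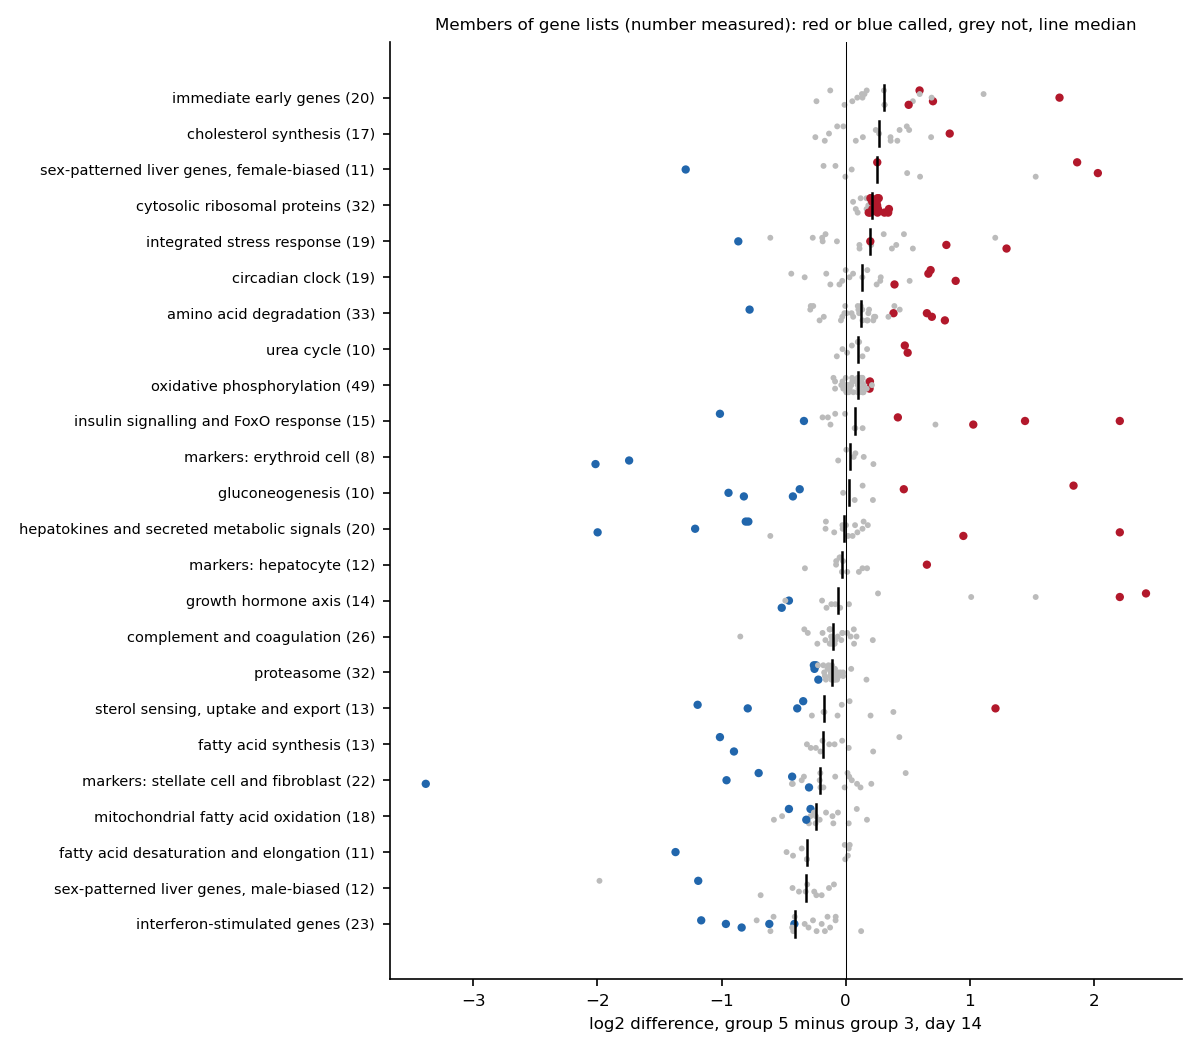
Each point is 1 measured member of a gene list, placed at its log2 difference of group 5 from group 3 at day 14; red and blue points were called higher and lower, grey points were not called, and black lines mark the median of the list (number measured in brackets). The 32 ribosomal proteins all lie right of 0 within a narrow band, and 22 of the 23 interferon-stimulated genes lie left of it.

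Growth and turnover genes changed at single points of their pathways. Ccnd1, the cyclin that admits cells to the cycle, read 10.78, 10.21, 9.72, 9.56 and 10.34 in group 3 and 8.43, 8.53, 8.87, 9.24 and 7.75 in group 5. It was 2.95-fold lower (log2 −1.56, standard error 0.28, adjusted p = 0.0103), and its level in group 2 was 9.38, below the group 3 mean. The cyclin-dependent kinase inhibitor Cdkn1b rose by 0.48 (adjusted p = 0.00919). Of 33 cell cycle genes, Stmn1 (−0.85), Cdk1 (−0.36, adjusted p = 0.0464, completing the count) and Ccnb2 (−0.41, 3 of 10 fits) also fell, and the 4 falls were 2 without rat 756. Myc, a growth factor-induced transcription factor, rose by 1.72 (standard error 0.43, adjusted p = 0.041): it read 7.47, 7.66, 7.28, 6.52 and 8.01 in group 3 and 10.03, 7.73, 9.49, 8.34 and 9.97 in group 5, with rat 767 within group 3. Bcl2l11, which encodes the death-promoting protein Bim, read 9.04, 8.94, 9.33, 7.68 and 8.07 in group 3 and 10.10, 10.00, 9.98, 9.65 and 10.16 in group 5 and rose by 1.37 (standard error 0.27, adjusted p = 0.0175), with another of its 3 probe sets at 0.15. A few genes of autophagy rose without overlap. Retreg1, a receptor for the removal of endoplasmic reticulum, rose by 1.22 (adjusted p = 0.00701). Bnip3, a receptor on mitochondria, rose by 0.69 (adjusted p = 0.0343) and Gabarapl1, which coats autophagosomes, by 0.55 (adjusted p = 0.00852). Retreg1 was not on the list of 20 autophagy and lysosome genes, of which Bnip3 and Gabarapl1 were the rises and Sqstm1 (−0.29, 4 of 10 fits) the fall. Of the 20 means, 8 were higher in group 5 and 12 lower (median difference −0.03).

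Of 19 clock genes, 4 rose and none fell. Cry1, a repressor of the core clock, read 7.98, 7.95, 8.06, 7.62 and 8.34 in group 3 and 8.76, 9.04, 9.06, 8.54 and 9.0 in group 5 (difference 0.89, standard error 0.14, adjusted p = 0.00565). Per1 (0.67, adjusted p = 0.026), Per3 (0.39, adjusted p = 0.0365) and Nfil3 (0.69, adjusted p = 0.0465, 7 of 10 fits) were the others. Dbp, a strongly cycling output gene, had means of 10.80 in group 3 and 10.77 in group 5 (adjusted p = 0.942). The time of day of feeding and necropsy by animal was not analysed here. Per1 also belongs to 18 genes of the glucocorticoid response, of which Fkbp5, a cochaperone of the receptor (1.24, 5 of 10 fits), Tat and Klf9 (0.39, adjusted p = 0.0246, completing the count) rose too, and Serpina6, which carries corticosterone in plasma, fell by 0.61 (4 of 10 fits). The 4 rises were 2 without rat 756, 757, 759, 760 or 770. In group 3, rat 758 read 9.12 for Fkbp5 while the other 4 read 7.35 to 7.62.

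Interferon-stimulated genes were lower, with 22 of 23 means below those of group 3 (median difference −0.41) and 5 passing the test. Rsad2, the antiviral protein viperin, read 7.55, 7.41, 7.15, 7.20 and 7.71 in group 3 and 6.48, 6.70, 6.54, 6.36 and 6.13 in group 5, and fell by 0.96 (standard error 0.13, adjusted p = 0.00319) without overlap. Usp18, which removes the ubiquitin-like protein ISG15, read 9.46, 9.15, 8.79, 8.37 and 8.66 in group 3 and 7.31, 8.81, 7.35, 7.45 and 7.68 in group 5. Rat 767 was within the range of group 3 and the other 4 rats of group 5 were below it (difference −1.16, standard error 0.28, adjusted p = 0.0368). Tap1, a peptide transporter of antigen presentation, fell by 0.61 (adjusted p = 0.0111) while its other probe set read 0.10, Ifi44l by 0.84 (7 of 10 fits) and Irf9 by 0.41 (adjusted p = 0.0763, completing the count). The count rose to 11 without rat 767 and fell to 3 without rat 756, 757 or 770. Rtp4, an interferon-induced gene not on the list, was among the 15 largest falls (−1.35, standard error 0.20, adjusted p = 0.0055), from 10.62, 9.81, 9.78, 10.25 and 9.51 to 8.68, 9.16, 8.57, 8.50 and 8.32. T and NK cell markers had a mean log2 level of 6.164 to 6.428 in the rats of group 3 and 6.12 to 6.263 in group 5, with 1 of 19 called (Lck, −0.20, 1 of 10 fits). Macrophage markers had 10.025 to 10.565 and 9.841 to 10.28, with 1 of 12 called (Lyz2, lysozyme, −0.55, adjusted p = 0.0213), and the part of these cells in the interferon genes was not tested.

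Some markers of other liver cells fell, among them 5 of 22 stellate cell and fibroblast markers and 2 of 8 erythroid markers. None of the endothelial or cholangiocyte markers was called. Lox, the oxidase that crosslinks collagen, read 9.49, 7.88, 8.78, 9.31 and 8.06 in group 3 and 5.09, 4.64, 5.32, 5.64 and 5.91 in group 5. The groups lay far apart, the difference was −3.38 (standard error 0.32, adjusted p = 0.001), or 10.4-fold, and the other probe set of Lox fell by 2.20. Of 22 stellate cell and fibroblast markers, Lox, Col3a1 (−0.96, adjusted p = 0.0265), Col5a2 (−0.70, 4 of 10 fits), Loxl2 (−0.43, 2 of 10 fits) and Col1a1 (−0.29, adjusted p = 0.0839, completing the count) fell. Of the 22 means, 7 were higher in group 5 and 15 lower (median difference −0.20, highest 0.48). The mean log2 level of the 22, which includes Lox, was 7.436 to 7.711 in group 3 and 7.01 to 7.512 in group 5, 7.429 to 7.736 in group 4, and 1 of the 22 was called without rats 769 and 770. The count was 2 without rat 757, 760, 766, 769 or 770 and 3 without rat 756. Nrep, a small protein known from wound repair, read 11.40, 11.46, 10.37, 11.68 and 12.19 in group 3 and 10.00, 9.58, 9.27, 9.498 and 8.11 in group 5 and fell 4.38-fold (log2 −2.13, standard error 0.36, adjusted p = 0.00852).

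The erythroid genes Hbb and Alas2 were lower in every rat of group 5. Hbb, the beta chain of haemoglobin, read 12.86, 13.12, 13.06, 12.92 and 13.20 in group 3 and 11.32, 10.41, 11.63, 11.68 and 10.04 in group 5 (difference −2.02, standard error 0.28, adjusted p = 0.00401), or 4.05-fold. Alas2, the erythroid enzyme that starts heme synthesis, read 7.56, 8.00, 8.07, 7.84 and 8.08 in group 3 and 5.81, 6.23, 6.6, 6.11 and 6.09 in group 5 (difference −1.75, standard error 0.14, adjusted p = 0.000464), or 3.35-fold. The other 6 of 8 measured erythroid markers did not pass. Of the 8 means, 5 were higher in group 5 and 3 lower (median difference 0.04), so the list did not fall as a whole. The mean log2 level over the 8, which includes Hbb and Alas2, was 7.028 to 7.171 in the rats of group 3. In those of group 5 it was 6.555 to 6.92. Klf1 differed by 0.22 (adjusted p = 0.124) and Slc4a1, the band 3 anion exchanger, by 0.07 (adjusted p = 0.704). The last heme enzymes Fech (−0.25, 3 of 10 fits) and Ppox (−0.36, 5 of 10 fits) also fell. Of 8 neutrophil markers measured 2 were called. S100a9 fell by 0.79 (adjusted p = 0.00513) and S100a8 by 0.29 (6 of 10 fits), the latter below the dim level in both groups. Of the 8 means, 3 were higher in group 5 and 5 lower (median difference −0.05), and 4 of the genes lay below the dim level. Of 8 B and plasma cell markers Cd74 was the 1 called (−0.55, 7 of 10 fits), with 1 mean higher and 7 lower. None of 11 endothelial or 9 cholangiocyte markers passed limma, with 2 of each at an unadjusted p under 0.05. The lognormal model called 0, the fit of all groups called 1 of each higher, and median centring or leaving out rat 769 called 2 endothelial markers higher. How much blood or how many cells of each type these livers held was not measured.

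Other groups of genes ranged from no calls (complement and coagulation) to 5 falls and 2 rises among 15 junction genes. Of all genes, 3.76% were called higher and 5.79% lower. None of 26 complement and coagulation genes passed limma at the threshold used, with C6 the largest difference (−0.85, adjusted p = 0.124), but 20 of the 26 means were lower and 8 genes had an unadjusted p under 0.05. The fit of all groups called 9 of them lower and 1 higher, quantile normalization 2 lower and 1 higher, the fit without rat 767 3 lower and the lognormal model 0. Of acute phase and carrier proteins 1 of 25 passed (Il6r, 0.51, 2 of 10 fits). Among 20 endoplasmic reticulum folding genes, Edem1 rose (0.88, 7 of 10 fits) and Sdf2l1 fell (−0.35, 2 of 10 fits). Aars1 (−0.28) fell and Eif3a (0.28) rose among 27 translation factors and tRNA synthetases, and both held in each leave-one-out fit. Of 20 targets of NRF2, the factor of the oxidative stress response, 4 fell (Akr7a3, Gclc, Gstm2 and Gsr, −0.83 to −0.35), and none of the 4 held in all 10 fits: none was called without rat 756, 758 or 768, and 6 were without rat 769. Of 15 junction genes, Cldn2 (−0.75, 3 of 10 fits), Cgn (−0.55, 9 of 10 fits), Cdh2 (N-cadherin, −0.53, adjusted p = 0.0135), Gjb1 (−0.25) and Cldn12 (−0.24) fell and Ocln (0.33, 6 of 10 fits) and Tjp1 (0.25) rose, the last of each direction and Gjb1 being named to complete the count. The falls were 3 without rat 756, and without rat 757, 758, 759 or 768 neither rise was called. Of 33 nuclear receptors 4 rose and 1 fell, and the rise of Nr5a2 (0.55, adjusted p = 0.00852), a regulator of bile acid genes, and the fall of Nr1h3 held in every fit. The other rises were Rarb (0.48, 4 of 10 fits), Esrra (0.35, 3 of 10 fits) and Nr1i2 (0.33, 9 of 10 fits). Of 20 immediate early genes, Myc, Klf10 (0.70, 6 of 10 fits), Ier2 (0.60, 2 of 10 fits) and Klf6 (0.51) rose, a count of 2 without rat 756, 757, 760 or 770 and 7 without rat 769.

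**Figure D4:**
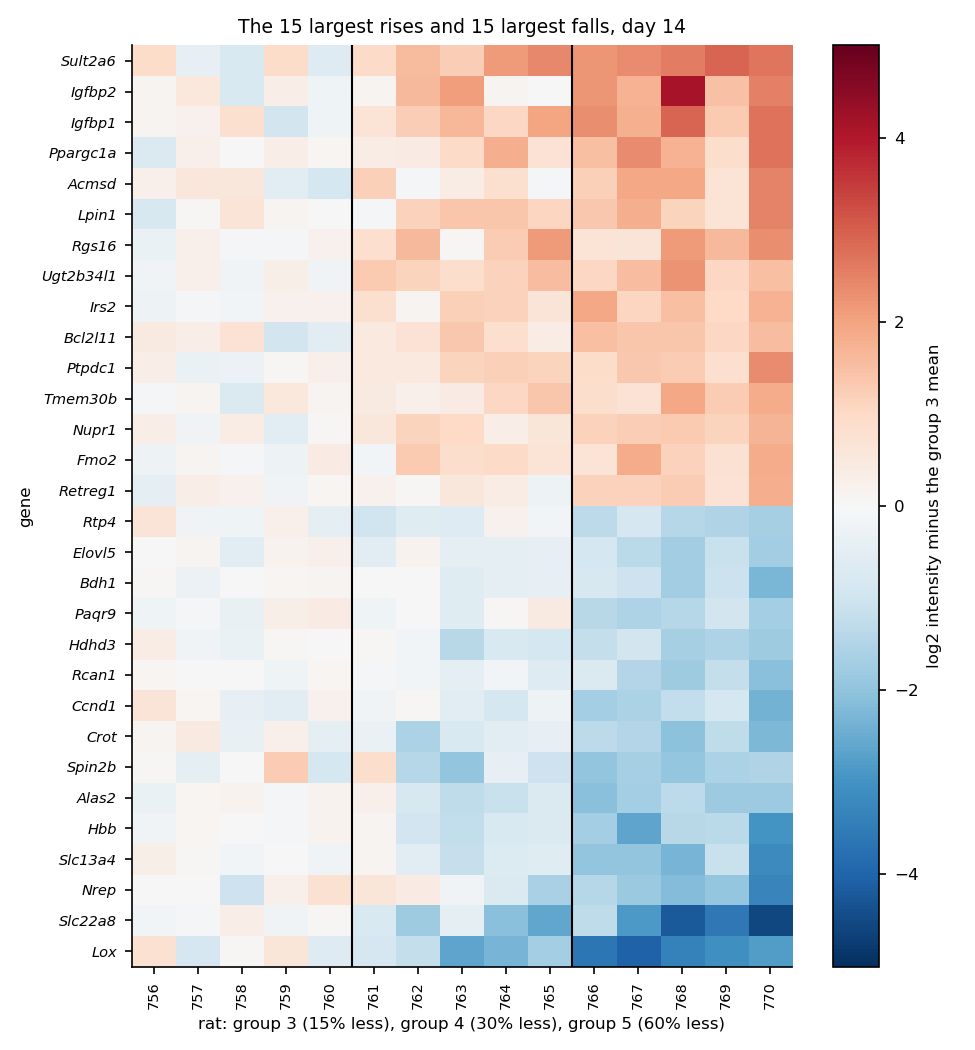
Rows are the 15 largest rises and 15 largest falls of group 5 against group 3 at day 14 among called genes whose groups did not overlap, and columns are single rats of groups 3, 4 and 5; colour is log2 intensity minus the group 3 mean (red higher, blue lower). The 5 rats of group 4 show paler colours of the same sign as group 5 for most of the 30 genes.

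Rats with 30% less food, which were not used in the contrast, stood between the compared groups for most of these genes. The group 4 mean lay between the means of groups 3 and 5 for 1225 of the 1358 called genes (90.2%), against 46.5% of all genes, and a wide gap between 2 means leaves more room for another. Among the called genes, the median share of the distance from group 3 to group 5 already covered in group 4 was 38.2%. The 15 largest rises and 15 largest falls among called genes whose groups did not overlap, 30 in all, each had group 4 between. Lox went from a mean of 8.71 in group 3 to 6.97 in group 4 and 5.32 in group 5, and Sult2a6 from 8.83 to 10.48 and 11.37. Inhbe stood at 9.96, 9.70 and 7.96, and Nrep at 11.42, 11.12 and 9.29, so most of their distance lay between groups 4 and 5. The ad libitum group did not always extend the order. Nrep (10.04), Rcan1 (10.67 against 11.69 in group 3), a calcineurin inhibitor that fell by 1.44, and Tmem30b (8.56 against 7.72), a flippase subunit that rose by 1.34, had group 2 means on the group 5 side of group 3. Akr7a3 read 9.92 to 10.18 in group 2 and 10.29 to 11.76 in group 3, and Gpat4 10.53 to 10.73 and 11.09 to 11.35. For Akr7a3 and Gpat4, as for Nrep and Rcan1, group 3 stood above the ad libitum group. Gsr overlapped, with 8.945 to 9.377 in group 2 and 9.093 to 9.407 in group 3.

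At day 4 the same contrast, in other rats, called 118 genes (0.83% of those tested), 75 higher and 43 lower. That count ran from 16 without rat 731 to 204 without rat 741, and was 21, 41, 44, 22, 33 and 23 without rats 732, 733, 735, 743, 744 and 745. Calls on both days numbered 33, which is 2.43% of the day 14 calls and 28.0% of the day 4 calls, and 31 of them had the same direction. Of the day 14 calls, 1004 (73.9%) had the same sign at day 4, against 56.0% of all genes. Among those 30 genes 25 had the same sign, but 1 (Bcl2l11, 0.97, adjusted p = 0.0821) was called at day 4. Sult2a6 differed by 0.92 (adjusted p = 0.39) and Lox by −0.27 (adjusted p = 0.928). Cry1 (1.08, adjusted p = 0.0946), Atf5 (−0.81, adjusted p = 0.0988) and Ldha (−0.55, adjusted p = 0.0883) were changed in the same direction on both days.

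The difference between the days was tested as an interaction over the 20 rats, and 199 genes passed (1.4% of those tested), 48 with a positive and 151 with a negative term. The count was 73 without rat 770, 83 without rat 768, 78 without rat 731 and 87, 90, 123, 106, 102 and 103 without rats 756, 757, 758, 732, 742 and 744, and it was 322 without rat 767, 312 without rat 769 and 82 without both rats 769 and 770. In 147 of the 199 the day 14 difference was the larger in size. Slc22a8 had a term of −2.57 (standard error 0.63, adjusted p = 0.0748), Slc13a4 of −2.16 (adjusted p = 0.0432), Hbb of −1.78 (adjusted p = 0.041) and Alas2 of −1.40 (adjusted p = 0.041). Irs2 had a positive term of 1.497 (standard error 0.28, adjusted p = 0.0304), with a day 4 difference of −0.05. Srebf1 (−1.71, adjusted p = 0.0529) and the acetyltransferase Nat8 (−1.73, adjusted p = 0.0304) had day 4 means on the other side, 0.70 and 0.93, neither of which passed at day 4. For Igfbp1 (term 1.73, adjusted p = 0.128), Igfbp2 (2.60, adjusted p = 0.11), Ppargc1a (1.28, adjusted p = 0.208) and Lox (−3.11, adjusted p = 0.15) the change between days did not pass, so their differences are not shown to be particular to day 14. No label besides the sampling day marks a possible batch, so batch and day cannot be told apart.

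**Figure D5:**
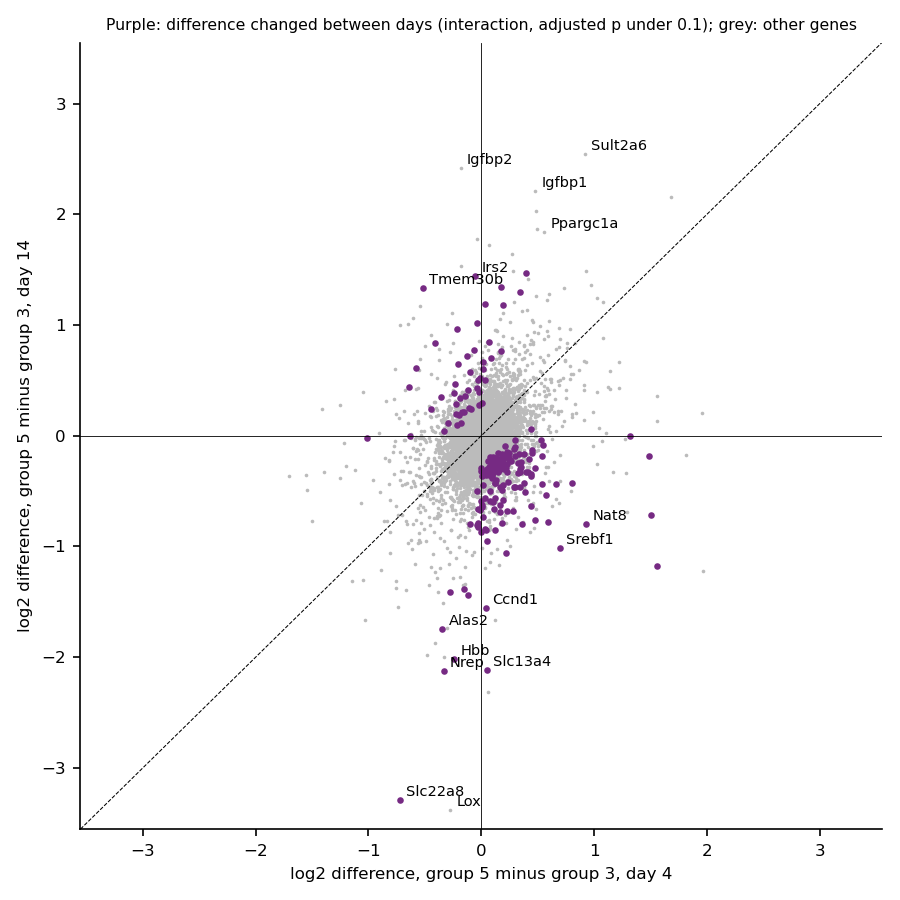
Each point is 1 of 14217 genes, with the log2 difference of group 5 from group 3 at day 4 on the horizontal axis and at day 14 on the vertical axis; the dashed line marks equal differences. Purple points are the 199 genes whose difference changed between days (limma interaction, adjusted p under 0.1), 151 of them with a negative term, with Slc22a8, Slc13a4, Nrep and Hbb the lowest of those labelled.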

How the data were processed

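Liver RNA was hybridised to Affymetrix whole-genome rat GeneChip arrays, 1 array per rat. Per the deposited notes the authors used Affymetrix Expression Console and RMA in affy 1.38.1 with R 3.0.1, and deposited linear intensity values rounded to whole numbers (31042 probe sets, 49 arrays), which were taken to log2 here from those deposited values. Replicates are separate rats, and the number of arrays limits the precision. Of the probe sets 20826 carry 1 gene symbol, 436 several and 9780 none, and the gene IDs of 20758 matched RefSeq. Each of 14217 genes was read from its probe set with the highest mean. Rounding steps are 0.046 in log2 at the level of the dimmest 25% of probe sets (4.941).

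Groups 5 and 3 were fitted alone with limma 3.58.1 in R 4.3.3, two-sided, with Benjamini-Hochberg adjustment over all genes and a threshold of 0.1, separately at each day, and the change between days as an interaction over 20 rats. Figures and counts used Python 3.11.15 with numpy 2.4.6, pandas 2.3.3 and matplotlib 3.10.9. The fits were tested on simulated data with known changes. Values there were drawn for each gene on its own, so that test does not bear on how calls depend on single rats.

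The naming rule picked the 15 largest rises and falls among called genes whose groups do not overlap and whose higher mean is above the dim level. It also picked up to 4 called members of each gene list, the largest in size. Where none was called, up to 2 with the largest difference were taken. The hub and high-betweenness genes and steroid dehydrogenases of the study, and the 8 called genes with the largest interaction, completed it. Other genes are named to complete a count or as defining genes, and were chosen after their values were seen. The members and the 57 lists were chosen with earlier results of these data known. The methods' lognormal model (LNN-MV) was rewritten here as an alternative, since the package was not used here. Other alternatives were the threshold, a minimum fold, 1 fit of all groups, array weights, all probe sets or their mean, a dim filter, robust fitting, centring, quantile normalization and leaving out rats. Promoter windows come from RefSeq.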

Additional observations from a re-analysis of the deposited data

Results flagged for a closer look

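Single rats stood apart from the other 4 of their group for 12 of 342 groups of values looked at, and chance alone marks about 1 group in 20. Rat 770 of group 5 was apart for Amacr (12.14), Cdh2 (9.72), Cgn (6.38) and Mgll (8.02). Rat 756 of group 3 was apart for Esrra (7.52), Ppp1r3b (9.71) and Sesn1 (8.50). Rat 757 was apart for Eno3 (5.67), rat 758 for Fkbp5 (9.12), rat 760 for Psma4 (9.96), rat 767 for Usp18 (8.81) and rat 768 for Nfil3 (10.05).

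For 25 of the genes named, the difference of group 5 from group 3 changed between day 4 and day 14 by the interaction test. The terms, as day 14 minus day 4 on the log2 scale, were negative for transporters and enzymes of small molecules: Slc22a8 (−2.57), Slc13a4 (−2.16), Nat8 (−1.73), Bdh1 (−1.23), Pklr (−1.10), Gpd1 (−0.79), Shmt2 (−0.64), Gpat4 (−0.63) and Pgm1 (−0.35). They were also negative for Nrep (−1.80), Hbb (−1.78), Alas2 (−1.40), Srebf1 (−1.71), Ccnd1 (−1.60), Ppp1r3b (−1.38), Rcan1 (−1.33), Hdhd3 (−1.13), Stmn1 (−0.97), Sdf2l1 (−0.79) and Sqstm1 (−0.51). Positive terms were found for Tmem30b (1.85), Irs2 (1.5), Ptpdc1 (1.17), Ugt2b34l1 (1.07) and Nupr1 (0.95). The day of sampling and a batch cannot be told apart for any of them.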

How the results depend on the processing

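For day 14, the 1358 calls (535 higher, 823 lower) were 718 (280, 438) at an adjusted p under 0.05, 300 (126, 174) with a minimum fold of 1.5, 2228 (892, 1336) in 1 fit of all groups, and 885 (349, 536) by the lognormal model; array weights gave 811 higher, and leaving out rats 769 and 770, an alternative chosen after seeing the data, gave 499 lower. Leaving out 1 rat gave 751 to 1723 called, 293 to 848 higher and 434 to 875 lower. The 118 calls at day 4 were 24 at 0.05, 34 with the minimum fold, 327 in the fit of all groups, 56 over all probe sets, 59 with the mean of the probe sets and 191 by the lognormal model, and 16 to 204 without 1 rat. The 199 interaction calls were 57 at 0.05, 98 with the minimum fold, 545 in the fit of all groups, 357 with array weights, 82 without rats 769 and 770, and 73 to 322 without 1 rat. The sign turned for 2 genes that were not called: Eno3 read 0.035 without rat 767 (−0.075 to 0.035 without single rats), and Hsd17b1 read −0.017 with array weights, −0.037 without rats 769 and 770 and −0.028 without rat 769. The cause was not tested. No paired analysis was possible because the rats of the groups carry separate animal numbers. Genes near the dim level, such as Inhba, S100a8 and Cdk1 in group 5, have little signal above background.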
